A study of Mus musculus with 8 samples.

Results

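The Cyp3a cytochromes P450 of the mouse were followed here through 6 genes, Cyp3a11, Cyp3a13, Cyp3a16, Cyp3a25, Cyp3a41a and Cyp3a44. Their probes were taken from the platform annotation by gene symbol, which gave 8 of the 44290 features of the array, 2 each for Cyp3a25 and Cyp3a44 and 1 for each of the others. All 8 probes had a value on all 8 arrays. Cyp3a enzymes sit in the membrane of the endoplasmic reticulum and oxidise drugs, steroids, bile acids and many plant compounds, mainly in liver and gut epithelium. Several of their genes are switched on by the pregnane X receptor, a nuclear receptor that binds foreign compounds and bile acids and acts on DNA as a pair with the retinoid X receptor.

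The curcumin group was 4 male mdr1a-/- mice fed the AIN-76A diet with 0.2% curcumin, a polyphenol found in turmeric root. The control group was 4 male mdr1a-/- mice fed the AIN-76A diet alone. All 8 mice lack the drug efflux pump encoded by Abcb1a, which makes them prone to colitis, and the labels of the control arrays name the strain as Swiss mouse. Each mouse is labelled as 7 weeks old, but the series text has the animals followed from week 7 to week 24. Per the series text, the curcumin mice put on arrays had a low HIS, the histological injury score of the colon, and the control mice a high HIS, so diet and score differed together and cannot be told apart. Colon RNA of each mouse was labelled with Cy3 and hybridised on a 2-colour Agilent array beside a Cy5-labelled reference RNA, 1 array for each mouse. In such bulk RNA, fewer cells of a type and less transcript in each cell cannot be told apart.

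The values are log2 ratios, and the labels do not say which channel is on top. They are read here as mouse colon over reference, so that a positive difference means a higher ratio to the reference with curcumin. The basis is that the markers of hepatocytes and of kidney, organs absent from a colon sample, had array medians of -3.23 to -2.76 and of -2.73 to -1.94. If reference were on top instead, each difference given here would change sign. This basis takes the reference to hold transcripts of those organs. The channel labels call the reference colon of wild-type Swiss mice on the same diet, while the series text speaks of a single reference RNA. A reference of colon alone would go against the basis given for the direction, and the make-up of the reference is not settled here. If the reference differed between the diets, as the channel labels have it, each difference given here, that of Cyp3a13 included, would hold the difference between the references too, and the 2 cannot be told apart. Higher, lower, rose and fell below are said of the ratio to the reference. Curcumin arrays correlated with each other at 0.864 to 0.911, control arrays at 0.777 to 0.911, and arrays of different diets at 0.730 to 0.828. Precision is limited by having 4 arrays a diet, with a median SE of 0.12 for a log2 difference. Abcb1a, the disrupted gene, had log2 ratios of -0.39, -0.21, -0.20 and 0.05 in curcumin mice, against -0.54, -0.43, -0.57 and -0.67 in control mice. Both groups carry the disruption, so this probe does not check the diet labels, and where it lies relative to the disruption is not known here.

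The promoters of 3 members are shown because their probes gave the findings below: that of Cyp3a13, the member that changed, that of Cyp3a11, the best known pregnane X receptor target of the family, and that of Cyp3a16, whose difference lay next to the threshold. Each runs 5′ to 3′ from 250 bases before to 50 bases after the RefSeq transcript start in GRCm38.p6, on the minus strand of chromosome 5. Capitals mark matches to AGGTCA or AGTTCA on either strand, the hexamers that nuclear receptors bind in pairs.
Cyp3a13, chr5:137921570-137921869: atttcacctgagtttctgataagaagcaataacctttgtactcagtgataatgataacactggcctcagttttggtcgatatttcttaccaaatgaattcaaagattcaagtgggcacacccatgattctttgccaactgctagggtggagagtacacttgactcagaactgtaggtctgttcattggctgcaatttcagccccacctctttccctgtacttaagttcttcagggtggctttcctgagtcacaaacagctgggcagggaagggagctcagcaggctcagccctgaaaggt
Cyp3a11, chr5:145879805-145880104: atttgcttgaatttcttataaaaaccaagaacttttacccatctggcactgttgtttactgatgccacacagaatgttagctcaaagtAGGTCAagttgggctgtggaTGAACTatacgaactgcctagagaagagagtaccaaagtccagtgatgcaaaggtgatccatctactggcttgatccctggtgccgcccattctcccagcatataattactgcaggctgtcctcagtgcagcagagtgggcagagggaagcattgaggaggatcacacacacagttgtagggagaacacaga
Cyp3a16, chr5:145469674-145469973: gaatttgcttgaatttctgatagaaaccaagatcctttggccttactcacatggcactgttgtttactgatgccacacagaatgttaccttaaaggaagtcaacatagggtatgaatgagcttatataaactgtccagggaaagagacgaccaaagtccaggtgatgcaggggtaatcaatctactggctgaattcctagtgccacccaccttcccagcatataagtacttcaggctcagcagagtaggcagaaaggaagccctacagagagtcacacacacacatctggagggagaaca

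All 6 members matched an entry of the RefSeq promoter table. The promoter windows of the other 5 genes lay within 540 kb of each other, and that of Cyp3a13 lay 7.55 Mb away from the nearest of them. In a global alignment the Cyp3a13 window was 52.7% to 57.4% identical to the other 5. Those of Cyp3a16, Cyp3a41a and Cyp3a44 were 92.4% to 93.4% identical to each other. The Cyp3a11 window was 71.6% to 75.2% identical to these 3, and the Cyp3a25 window was 55% to 58.1% identical to the other 4 of the cluster. AGGTCA was present in 3 of the 6 windows and in 16.3% of all 32851 windows of the table, and AGTTCA in 2 of the 6 and in 14% of all. Cyp3a11 held 1 of each, starting 162 and 142 bases before the start site, Cyp3a25 held 2 copies of AGGTCA, and Cyp3a44 and Cyp3a41a held 1 match each. The windows of Cyp3a13 and Cyp3a16 held neither hexamer, which says nothing about sites outside these 300 bases.

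The comparison of the diets asked whether the Cyp3a genes differed in the colon between mice on curcumin and mice on the control diet. Of the 8 probes, 1 passed the threshold, an adjusted p under 0.05 in limma over all 33957 features tested. It was the probe of Cyp3a13, which was higher with curcumin. Over all features 4.35% passed, 1.98% higher and 2.38% lower with curcumin. None of the other 7 probes passed.

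Cyp3a13 (gene ID 13113, probe 41133) encodes the Cyp3a enzyme best known from mouse intestine. Its log2 ratios were 0.02, -0.66, -0.89 and -0.45 in the 4 curcumin mice, against -2.30, -2.09, -2.12 and -2.60 in the 4 control mice. Every curcumin mouse lay above every control mouse, and the lowest curcumin value was more than 1 log2 unit above the highest control value. Cyp3a13 averaged -0.50 ± 0.39 with curcumin and -2.28 ± 0.23 on the control diet (SD, n = 4 each). The transcript rose by a log2 difference of 1.78 (SE 0.19, 95% interval 1.35 to 2.21, adjusted p = 0.00221), which is 3.43-fold. By its p it ranked 82nd of the 33957 features, and its difference was larger in size than 99.8% of theirs. The groups did not overlap for 5.26% of all features in this direction, so the absence of overlap alone is common in these data. The call did not rest on 1 mouse: with each array left out in turn the difference ran from 1.61 to 1.91, with adjusted p of at most 0.0104.

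Curcumin arrays 3 and 4 carried slide numbers of another range than the other 6 arrays. With the range as a block, Cyp3a13 differed by 1.96 (SE 0.23, adjusted p = 0.014). Among the 6 arrays of the range that held both diets it differed by 1.96 (SE 0.22, adjusted p = 0.0254). The other range held curcumin arrays only, so both settings take the difference from the same 6 arrays and are not separate checks.

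**Figure D1:**
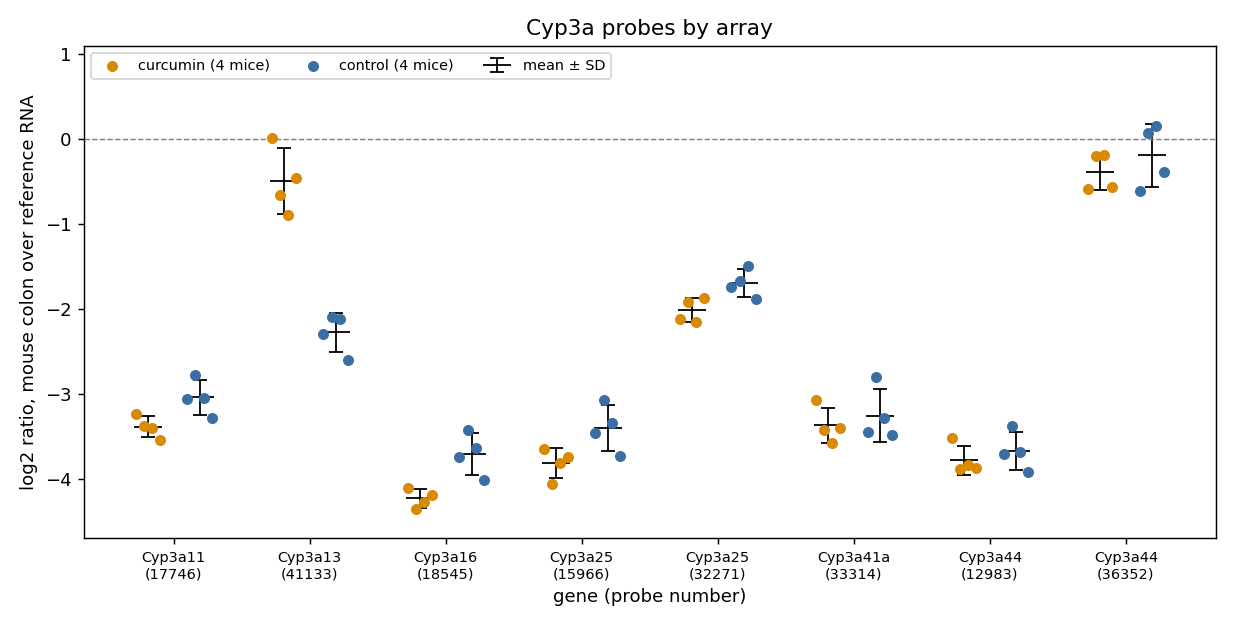
Log2 ratio of mouse colon over reference RNA (vertical axis) for the 8 Cyp3a probes (horizontal axis), 1 point for each mouse, curcumin left and control right, with mean and SD. The Cyp3a13 points lie at -0.89 to 0.02 with curcumin and at -2.60 to -2.09 on the control diet, while the diets overlap in the probes of the other genes except Cyp3a16.

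Markers of other cells moved between the same groups, where 1.98% of all features were higher and 2.38% lower with curcumin. Of 20 probes for 14 colon epithelial markers, 4 were higher with curcumin and none lower: 2 for the chloride-bicarbonate exchanger Slc26a3 and 1 each for the carbonic anhydrase Car4 and the epithelial factor Cdx1. The list median was 0.34 to 0.51 on the curcumin arrays and -0.11 to 0.22 on the control arrays. This list is partly blind. On at least 1 array, 13 of its 20 probes sat at a log ratio shared by 191 to 397 features of that array. No Cyp3a probe did. The lowest curcumin median, 0.34, is itself the shared log ratio of curcumin array 1. These list medians are therefore not read here as a level of epithelial transcripts. Of 13 probes tested for 10 neutrophil and macrophage genes, 8 were lower and none higher, and the list median was -0.10 to 0.53 on the curcumin arrays and 1.06 to 1.49 on the control arrays. In this list 1 probe, for Lyz2, sat at the shared log ratio on each array, while the other probe of Lyz2 gave -1.59. Of 12 probes tested for 7 genes of small intestinal enterocytes, the 2 that passed were both for Apob and higher. The other probes of Apob gave 0.26, -0.02 and 0.05. Differences were positive in 5 of the 12 probes, and the median difference of the list was -0.06. The array medians overlapped, at -1.86 to -1.66 with curcumin and -2.06 to -1.51 on the control diet. The part of these cells in the Cyp3a13 difference was not tested.

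The 5 genes of the cluster gave smaller differences of the opposite sign. Their 7 probes had negative differences in 7 of 7 cases, with a median of -0.32. The median over all features tested was -0.02, and 54.8% of features were negative. The 7 probes were read on the same arrays. Their deviations from the diet means correlated in pairs at 0.053 to 0.977, so the 7 signs are not separate observations. After quantile normalization 5 of the 7 were negative and 2 positive, with a median of -0.15, so the size of the shift and the sign of those 2 probes, of Cyp3a41a and Cyp3a44, moved with the scaling. The hepatocyte markers had a like shift: none of their 14 probes passed, 12 were negative, and their median difference was -0.18, with array medians of -3.23 to -3.10 with curcumin and -3.05 to -2.76 on the control diet. Among 7 kidney probes none passed, and their median difference was -0.16. The part of the reference RNA in these small differences was not tested. The table holds ratios only, so how bright any probe was in colon is not known here.

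Cyp3a11 (gene ID 13112, probe 17746) is the main Cyp3a enzyme of adult mouse liver and the usual readout of pregnane X receptor activity there. Its log2 ratios were -3.24, -3.37, -3.40 and -3.54 with curcumin, against -3.06, -2.78, -3.04 and -3.28 on the control diet. The ranges overlapped only through control mouse 4. The difference was -0.35 (SE 0.12, 95% interval -0.61 to -0.08, adjusted p = 0.150) and did not pass. After quantile normalization it shrank to -0.047 (adjusted p = 0.843).

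Cyp3a16 (gene ID 13114, probe 18545), known as a form of fetal mouse liver, came nearest to the threshold among these genes. Its log2 ratios were -4.10, -4.36, -4.27 and -4.19 with curcumin, against -3.74, -3.42, -3.64 and -4.01 on the control diet. All curcumin mice lay below all control mice, as did 6.7% of all features. The difference of -0.53 (SE 0.13, 95% interval -0.81 to -0.24) had an adjusted p of 0.0507, just outside the threshold. It moved inside without control replicate 4 (-0.63, adjusted p = 0.0342), and after quantile normalization it shrank to -0.26 (adjusted p = 0.0897). With the slide range as a block it stayed at -0.53 with an adjusted p of 0.2. Among the 6 arrays of the shared slide range it was also -0.53, with an adjusted p of 0.266.

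Cyp3a25 (gene ID 56388) is expressed in mouse liver and gut. Its probe 15966 read -3.65, -4.06, -3.81 and -3.74 with curcumin, against -3.46, -3.06, -3.34 and -3.72 on the control diet. Its probe 32271 read -2.12, -1.92, -2.15 and -1.87 with curcumin, against -1.74, -1.67, -1.49 and -1.88 on the control diet. In both probes only control mouse 4 reached into the curcumin range. The differences were -0.42 (SE 0.15, adjusted p = 0.162) and -0.32 (SE 0.11, adjusted p = 0.149), so the probes gave like differences although their log2 ratios to the reference were far apart. After quantile normalization the differences shrank to -0.15 for probe 15966 and -0.17 for probe 32271.

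Cyp3a41a (gene ID 53973, probe 33314) and Cyp3a44 (gene ID 337924) are known as forms that predominate in the liver of female mice, and the mice here were male. Cyp3a41a read -3.08, -3.43, -3.58 and -3.40 with curcumin, against -3.45, -2.80, -3.28 and -3.48 on the control diet. The groups overlapped throughout, and the difference of -0.12 (95% interval -0.49 to 0.26, adjusted p = 0.785) turned to 0.17 after quantile normalization. Probe 12983 of Cyp3a44 read -3.52, -3.88, -3.84 and -3.87 with curcumin, against -3.70, -3.38, -3.69 and -3.92 on the control diet. Its difference was -0.11 (95% interval -0.40 to 0.18, adjusted p = 0.737), and 0.18 after quantile normalization. Probe 36352 of the same gene read -0.58, -0.20, -0.18 and -0.57 with curcumin, against -0.61, 0.08, 0.16 and -0.38 on the control diet. The 2 probes of Cyp3a44 therefore disagreed by more than 3 log2 units in their ratio to the reference, and neither differed between the diets beyond its spread (probe 36352, -0.19, 95% interval -0.61 to 0.22, adjusted p = 0.663). The members of the cluster are close copies, probe sequences were not used here, and whether a probe also reads a neighbouring copy was not tested. Cyp3a41b, Cyp3a57 and Cyp3a59 have no probe under their symbols.

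**Figure D2:**
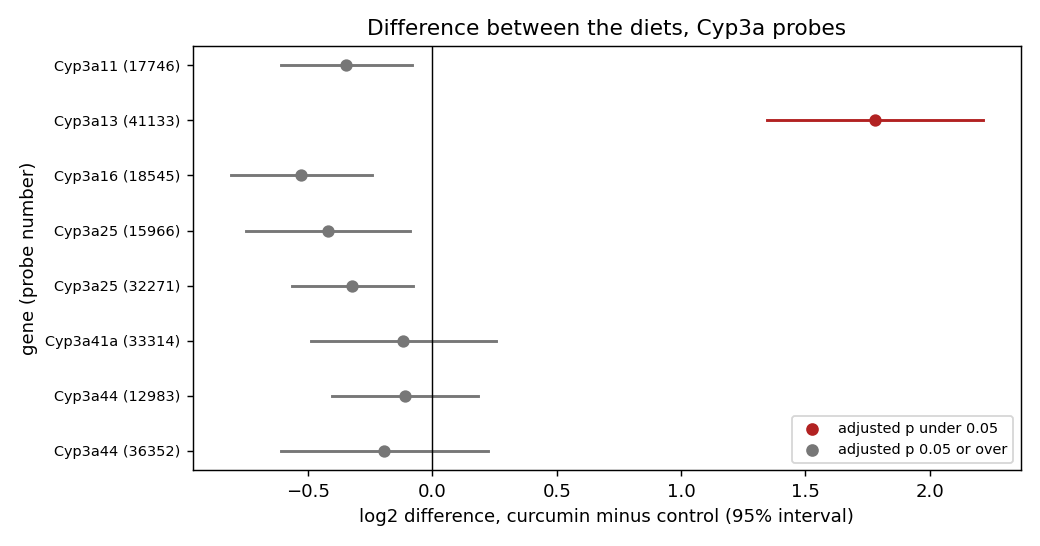
Log2 difference, curcumin minus control, with its 95% interval (horizontal axis) for each Cyp3a probe (vertical axis), red where the adjusted p was under 0.05. Cyp3a13 at 1.78 is the only probe in red, and the other 7 lie between -0.53 and -0.11.

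The distance of Cyp3a13 from the other probes was also taken within each array, where any scaling that adds 1 constant to an array cancels. Cyp3a13 was picked for this after its values were seen, so these distances are a description, with no test. The log2 ratio of Cyp3a13 minus that of Cyp3a11 averaged 2.89 ± 0.34 with curcumin and 0.76 ± 0.11 on the control diet (SD, n = 4 each), a change of 2.13 between the diets. Against all 7 other probes the change ran from 1.89 to 2.31. With 1 array left out the changes ran from 1.73 to 2.42, and among the 6 arrays of the shared slide range from 1.96 to 2.48.

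Genes that act on Cyp3a transcription were examined next, as a list of 17 nuclear receptors and factors with 27 probes tested. Of these probes 6 were higher and 1 lower with curcumin, and the list median was 0.10. Over all features tested 1.98% were higher and 2.38% lower. This list, like the other lists, was chosen with earlier results of these data known. The vitamin D receptor Vdr, which also activates Cyp3a genes, rose by 0.82 (SE 0.12, adjusted p = 0.00668). It read 0.21, 0.19, 0.52 and 0.55 with curcumin, against -0.55, -0.47, -0.24 and -0.54 on the control diet. The fatty acid receptor Ppara rose by 0.80 (SE 0.13, adjusted p = 0.0115), reading -0.77, -1.05, -1.25 and -1.28 with curcumin, against -1.87, -1.86, -1.72 and -2.10 on the control diet. Both passed whichever array was left out. In both the diets did not overlap, as was so for 5.26% of all features in this direction. Among the 6 arrays of the shared slide range Ppara passed (0.98, adjusted p = 0.0391) and Vdr did not (0.65, adjusted p = 0.076), while with the range as a block both passed (adjusted p = 0.0186 for Ppara and 0.0409 for Vdr).

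The other regulators were less firm. Hnf4a, a hepatocyte and gut receptor that Cyp3a genes depend on, rose in 1 of 3 probes by 1.16 (SE 0.22, adjusted p = 0.0215), while the other two gave 0.31 (adjusted p = 0.116) and 0.08 (adjusted p = 0.719). It lost the call without curcumin replicate 3 (adjusted p = 0.0572) or 4 (adjusted p = 0.0718). The coactivator gene Ppargc1a rose in 1 of 2 probes by 1.17 (SE 0.27, adjusted p = 0.0437), the gut factor Foxa2 by 0.82 (SE 0.19, adjusted p = 0.0476), and the glucocorticoid receptor Nr3c1 in 1 of 4 probes by 0.40 (SE 0.08, adjusted p = 0.0318). Cebpb, a factor induced in inflammation, fell in 1 of 2 probes, with a log2 difference of -1.10 (SE 0.26, adjusted p = 0.045). Ppargc1a and Foxa2 each kept the call only without control replicate 3 or curcumin replicate 3, Cebpb only without control replicate 2 or 4, and Nr3c1 only without curcumin replicate 2. In the other fits with 1 array left out the adjusted p reached 0.121 for Ppargc1a, 0.131 for Foxa2, 0.119 for Cebpb and 0.0918 for Nr3c1. The diets differed in the uncalled second probes by 0.33 for Ppargc1a (adjusted p = 0.190) and by -0.56 for Cebpb (adjusted p = 0.177), and in the other 3 probes of Nr3c1 by -0.01 to 0.36. With the slide range as a block Foxa2 passed (1.08, adjusted p = 0.0473), and the called probes of Hnf4a (0.88, adjusted p = 0.135), Ppargc1a (1.39, adjusted p = 0.0961), Nr3c1 (0.33, adjusted p = 0.186) and Cebpb (-1.26, adjusted p = 0.122) did not. None of these 5 passed among the 6 arrays of the shared range, with adjusted p of 0.0761 for Foxa2 up to 0.230 for Nr3c1.

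The pregnane X receptor gene itself, Nr1i2, is named outside the rule for named genes, after its values were seen. It read 0.33, 0.35, 0.59 and 0.62 with curcumin, against -0.15, 0.22, -0.09 and 0.04 on the control diet. The groups did not overlap, as was so for 5.26% of all features in this direction. The difference of 0.47 (SE 0.11, adjusted p = 0.0501) did not pass.

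Of 18 other known targets of the pregnane X receptor, 17 had a probe. Of their 22 tested probes 5 were higher and none lower with curcumin, where 1.98% of all features were higher and 2.38% lower. Differences were positive in 15 of the 22, with a list median of 0.28. The list includes Abcb1a, the gene disrupted in all 8 mice, which did not pass. The sulfotransferase Sult1a1 rose by 2.16 (SE 0.21, adjusted p = 0.00163). It read 1.38, 1.28, 1.05 and 1.16 with curcumin, against -0.995, -0.83, -0.39 and -1.55 on the control diet. The glutathione transferases Gstm2 and Gstm1 rose by 0.70 (SE 0.11, adjusted p = 0.00874) and, in 1 of 2 probes, by 1.02 (SE 0.16, adjusted p = 0.0103). These 3 genes passed in all 8 fits with 1 array left out. Gstm1's second probe gave 0.54 (adjusted p = 0.110).

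Both cytochromes P450 of the Cyp2c group in that list rose. Cyp2b10, a P450 of the list outside that group, is named outside the rule for named genes. Neither of its probes passed, at -0.10 (adjusted p = 0.608) and -0.27 (adjusted p = 0.157). Cyp2c29 read -1.52, -1.77, -2.07 and -1.93 with curcumin, against -3.49, -2.47, -3.25 and -3.44 on the control diet, a difference of 1.34 (SE 0.22, adjusted p = 0.0123). Cyp2c55 read 1.22, 0.15, 1.11 and -0.83 with curcumin, against -1.57, -1.35, -1.14 and -1.55 on the control diet, a difference of 1.82 (SE 0.40, adjusted p = 0.0364). Its spread among curcumin mice was wide, and the call held only without control replicate 3 or curcumin replicate 4, with adjusted p of up to 0.102 in the other 6 fits. Of the 5 called targets, Sult1a1 and Cyp2c29 passed with the slide range as a block (2.27, adjusted p = 0.014, and 1.52, adjusted p = 0.0438), and Sult1a1 and Cyp2c55 among the 6 arrays of the shared range (2.27, adjusted p = 0.0312, and 2.09, adjusted p = 0.0359). Gstm1 (1.02) and Gstm2 (0.62) kept their direction in both and passed in neither, with adjusted p of 0.0679 and 0.0686 with the block.

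Enzymes that serve P450s with electrons and haem gave 1 call among 12 probes tested for 8 genes, with a list median of -0.06. The share that passed over all features was 4.35%. Cyb5b, an outer mitochondrial cytochrome b5, rose in 1 of 2 probes by 0.60 (SE 0.14, adjusted p = 0.046), and its second probe gave 0.62 (SE 0.21, adjusted p = 0.146). The call was lost in all 8 fits with 1 array left out, with adjusted p of 0.0501 to 0.121, and with the slide range as a block (0.66, adjusted p = 0.143). The P450-binding haem protein Pgrmc1 had a difference of 0.33 (adjusted p = 0.119), the haem oxygenase Hmox1 -0.54 (adjusted p = 0.213) and the haem synthesis enzyme Alad -0.14 (adjusted p = 0.490). Por, the reductase of microsomal P450s, has no probe under its symbol.

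**Figure D3:**
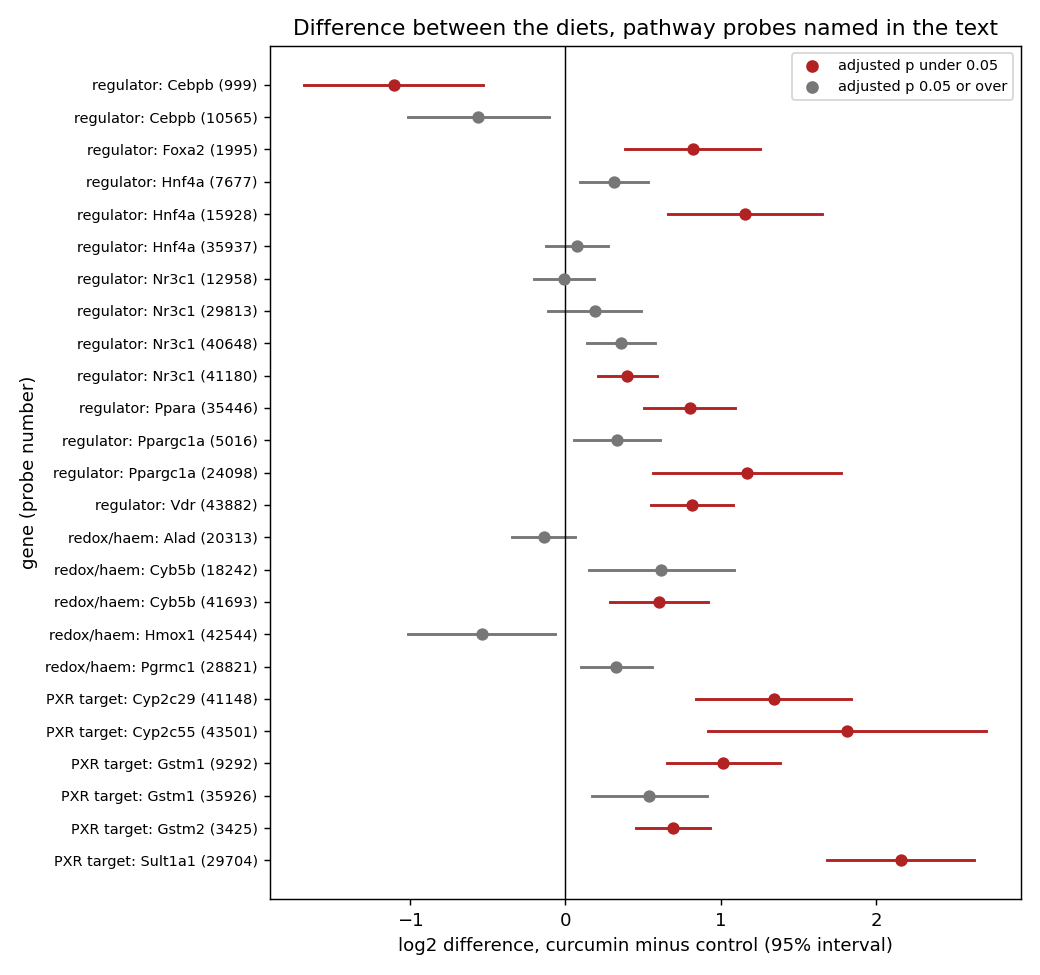
Log2 difference, curcumin minus control, with its 95% interval (horizontal axis) for the probes of the regulators, redox and haem genes and other pregnane X receptor (PXR) targets picked by the rule for named genes (vertical axis), red where the adjusted p was under 0.05. Sult1a1 at 2.16 and Cyp2c55 at 1.82 lie farthest right, and Cebpb at -1.10 is the only red point left of 0.

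Across 24411 features with 1 symbol and 8 values, the pattern most like that of Cyp3a13 over the 8 arrays was that of Cyp2c40, another P450. Its 2 probes had Pearson correlations of 0.995 and 0.989 with Cyp3a13, and Naprt, an enzyme of NAD synthesis, had 0.983. All 3 probes were higher with curcumin, by 1.99 and 2.34 for Cyp2c40 (adjusted p = 0.00161 and 0.00272) and by 1.14 for Naprt (adjusted p = 0.00174). The arrays form 2 clusters by diet in all of them, so these correlations describe the diet difference and carry no test. By deviations from the diet means, the most alike were Sod1 at 0.967, Hs1bp3 at 0.964 and Dcun1d1 at 0.963, and none of these 3 differed between the diets by more than 0.19 in size.

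**Figure D4:**
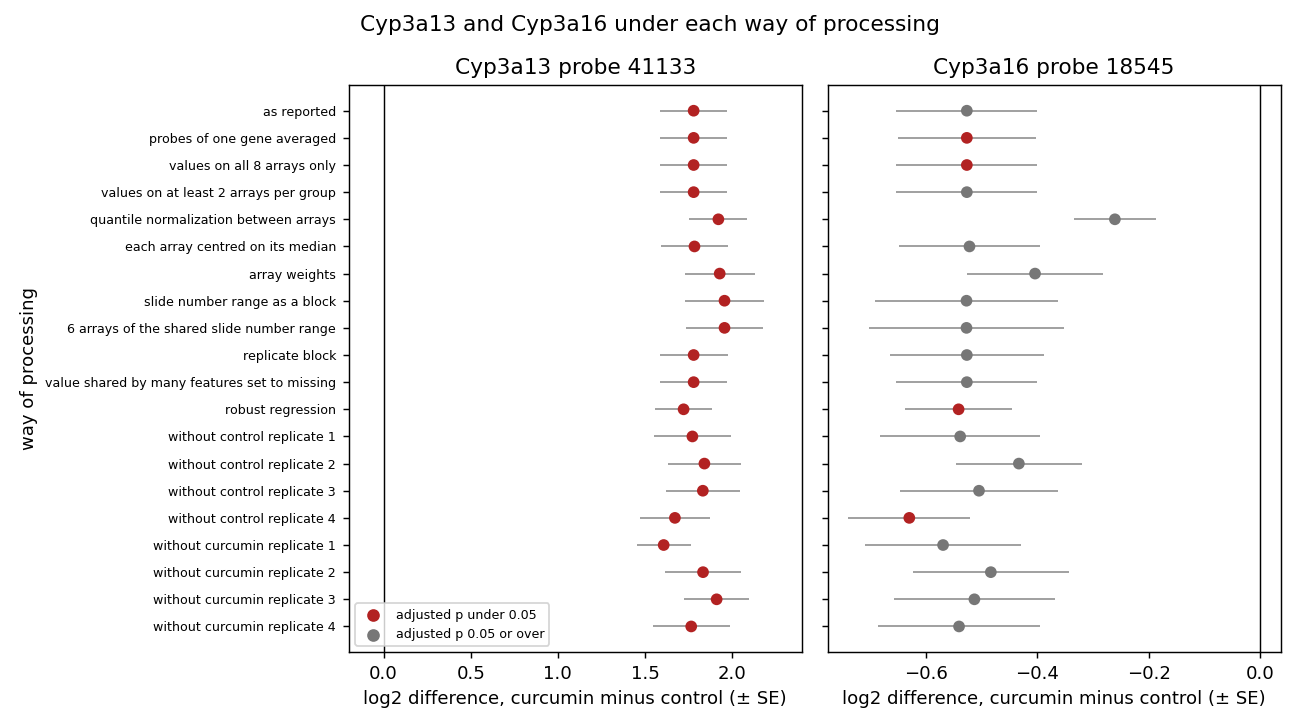
Log2 difference, curcumin minus control, ± SE (horizontal axes) for Cyp3a13 (left) and Cyp3a16 (right) as reported and under 19 other ways of processing (vertical axis), red where the adjusted p was under 0.05. Cyp3a13 stays between 1.61 and 1.96 and red throughout, while Cyp3a16 lies between -0.63 and -0.26 and is red under 4 of them.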

How the data were processed

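Colon RNA of 8 mice was measured on 8 two-channel arrays, 1 per mouse. The authors deposited log2 ratios, and the submitters' processing notes name limma without a version. Background correction, normalization method and ratio direction are not given in the sources used here. The table has 44290 features, with 5033 to 10529 missing values per array. Gene symbols came from the platform annotation and were compared by gene ID with RefSeq GRCm38.p6: 32042 have 1 symbol, 47 several and 12201 none.

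Each probe was fitted in limma 3.58.1 (R 4.3.3, lmFit and eBayes, statmod 1.5.0, curcumin minus control, no covariate), keeping the 33957 features measured on 3 or more arrays of each diet. P-values are two-sided with Benjamini-Hochberg adjustment over all of them, threshold 0.05. With 200 features changed in simulated data, the fit recovered 82% of changes of 1 log2 unit and 100% of changes of 2. It made 8 false calls among the unchanged features. The simulated noise was independent between features, so correlation between probes was not covered. Promoter windows were aligned with Biopython 1.88 (Python 3.11.15, pandas 2.3.3), and figures drawn with matplotlib 3.10.9.

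Named genes are all member probes, the genes that passed in each pathway list (where fewer than 4 did, the 4 with the smallest p) and the 3 features most correlated with a member. Members and lists were chosen with earlier results of these data known. There were 19 alternatives.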

Additional observations from a re-analysis of the deposited data

Results flagged for a closer look

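A sample that stood apart from the other 3 of its diet was found in 10 of 225 groups of 4 values, by Dixon's test at its 95% critical value. Chance flags about 1 in 20 groups, so this number is not more than chance gives. Among the Cyp3a probes it was Cyp3a44 probe 12983 in curcumin replicate 1, at -3.52 where the other 3 lay at -3.88 to -3.84. Among the regulators it was Nr1h4 in curcumin replicate 4 (-0.38, others -0.75 to -0.69), Cebpa in curcumin replicate 4 (0.17, others -0.06 to -0.02), Nr3c1 probe 41180 in control replicate 4 (-0.08, others -0.24 to -0.22) and Nr0b2 in control replicate 1 (0.09, others at -0.12). Among the redox and target genes it was Gstm2 in curcumin replicate 2 (-0.59, others -0.32 to -0.30) and Pgrmc1 in control replicate 4 (-2.69, others -2.35 to -2.31). Among the features most correlated with a member it was Cox16 in curcumin replicate 1 (0.35, others 0.23 to 0.24), Fam117a in curcumin replicate 1 (-0.11, others -0.34 to -0.31) and Cntnap5a in curcumin replicate 1 (0.45, others 0.09 to 0.14).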

How the results depend on the processing

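Cyp3a13 passed under all 19 alternatives, with differences of 1.61 to 1.96 and adjusted p of 0.000822 to 0.0254. Cyp3a11, both probes of Cyp3a25, Cyp3a41a and both probes of Cyp3a44 passed under none. Cyp3a16 passed with probes of a gene averaged (-0.53, adjusted p = 0.0478), with values on all 8 arrays required (-0.53, adjusted p = 0.048) and with robust regression (-0.54, adjusted p = 0.0117), which made 2 Cyp3a calls each. With 1 array left out it ran from -0.63 to -0.43 and the Cyp3a calls from 1 to 2. Cyp3a41a turned positive after quantile normalization (0.17), with array weights (0.0064), with the slide range as a block or within the shared range (0.0016 both) and without control replicate 2 (0.035, range -0.21 to 0.035), and Cyp3a44 probe 12983 after quantile normalization (0.18). With the probes of a gene averaged, Alad stood at 0.010 and Nr3c1 at 0.23. Both are averages over the probes of the gene, so they are not turns of a single probe. Hnf4a probe 35937 turned to -0.030 under both slide range settings, and Nr3c1 probe 12958 to 0.013 with array weights. With 1 array left out, Nr3c1 probe 12958 turned to 0.031 without control replicate 2. It turned to 0.013 without curcumin replicate 1 and 0.026 without curcumin replicate 2 (range -0.060 to 0.031). The cause of the turns of single probes was not tested.

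Features higher and lower numbered 671 and 807, and the split turned to 805 and 635 after quantile normalization. They numbered 1035 and 1407 with array weights, 216 and 175 with the slide range as a block, 156 and 89 within it, 1468 and 1912 with robust regression, and 275 to 725 and 312 to 1039 with 1 array left out, the lowest without control replicate 4 and without curcumin replicate 4. Regulator probes called numbered 4 with probes averaged, 3 with the slide block, 1 within the range and 2 to 6 with 1 array left out, against 7. Other receptor targets called numbered 2 under both slide range settings and 11 with robust regression, against 5. Redox and haem probes called numbered 2 after quantile normalization, with array weights and with robust regression, and 0 with probes averaged, under both slide range settings and in each fit with 1 array left out, against 1; the fits with fewer arrays have less precision by construction.

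Replicate numbers are shared between the diets, but deviations of same-numbered arrays correlated at -0.0095 to 0.209, with 2 of 4 over 0.1, and 3 of 8 arrays correlated best with their own number, so the numbers were not taken as pairs. With the replicate block 505 features were higher and 530 lower, 3 regulator probes and 0 redox and haem probes were called, and Cyp3a13 kept its call (1.78, adjusted p = 0.0119).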

Other observations

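Likeness to the cluster probes was also listed by the same rule, as Pearson correlations over the 8 arrays, with no test. For Cyp3a11 the nearest were the potassium channel gene Kcnj1 at 0.991, the steroid dehydrogenase gene Hsd3b5 at 0.989 and Gdpd5 at 0.984. For Cyp3a16 they were Ptar1 at 0.995, the anion transporter gene Slc22a19 at 0.987 and Cox16 at 0.979. For Cyp3a25 probe 15966 they were the urea transporter gene Slc14a2 at 0.977, the nuclease gene Dnase1 at 0.976 and Elfn1 at 0.975, and for its probe 32271 the alcohol dehydrogenase gene Adh6a at 0.986, Rbm28 at 0.974 and Rnf166 at 0.966. For Cyp3a41a they were Ubr1 at 0.955, Ints8 at 0.947 and Sned1 at 0.945. For Cyp3a44 probe 12983 they were the hydroxysteroid dehydrogenase gene Akr1c18 at 0.980, Fam117a at 0.971 and Cadps at 0.954, and for its probe 36352 Olfr22-ps1 at 0.989, Nfia at 0.968 and Pdlim4 at 0.968. None of these genes passed the threshold between the diets. The features most alike by deviations from the diet means are not listed here. Among them Cyp2c29, at 0.973 with Cyp3a41a, was the only one that passed (1.34, adjusted p = 0.0123).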
